A study of Mus musculus with 18 samples.

Results

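The collagen genes of mouse bone marrow were followed across age and irradiation. The family was taken as every gene whose mouse symbol is Col, a number, a and a number, after the RefSeq identifiers of the array probes had been matched to symbols. It has 44 genes in RefSeq, of which 39 have a matched probe among the 17178 genes measured. The other 5 (Col6a3, Col6a5, Col12a1, Col20a1 and Col22a1) were not analysed here. Of the 39 members, 30 were bright enough to be tested, 8 were too dim, and Col2a1 was left out of the main test because 4 of its spots were outliers. The probe with the highest mean signal stands for a gene with several probes.

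Collagens are trimeric extracellular proteins. Types I, III and V form the fibrils of bone and connective tissue, type IV forms the sheet of basement membranes under endothelium, type VI forms beaded filaments around cells, and types II, IX and XI build cartilage fibrils. In marrow they are made by osteoblasts, reticular and perivascular stromal cells and endothelium rather than by blood-forming cells, and they shape the niche in which those cells lodge.

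The marrow came from female mice of the C3H strain, aged 1 or 8 weeks. They were either not irradiated (0 Gy, the controls) or given 2 Gy of gamma rays and sampled at 6 h or at 24 h, which gives 6 groups of 3. Each RNA sample, labelled with Cy3, had an Agilent array of its own, 18 in all. The series' design text gives 3 mice per time point, so the arrays of a group are separate animals. How marrow was taken from the bone is not given in the sources used here, and nothing in the labels says that cell types were separated. A level is given as log2 signal minus the 75th percentile of the array, so that 0 lies at that percentile. A difference is between group means on that log2 scale, ± standard error from limma, with n = 3 arrays per group. A gene was called when limma's p-value, adjusted over the 11884 genes tested, was under 0.05.

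Between 51.1 and 62.1% of probes were well above background on each array. The tissue label was checked against 12 markers of blood-forming cells, of which 11 had a probe. All 11, among them Ptprc, Mpo, Klf1 and Cd79a, were well above background on all 18 arrays, and their mean level stayed between 3.02 and 3.36. Single markers moved in both directions under that mean, such as Vpreb1 (-2.22) and Mpo (0.61) at 8 weeks and 24 h against controls. Members of the collagen family varied more between arrays of a group than other genes, with a median residual SD of 0.324 against 0.115 for all genes tested.

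One array stands apart. In 1-week control replicate 2 the cartilage collagens were far above the other 1-week controls, Col9a3 by 7.18, Col2a1 by 7.10, Col9a1 by 6.77, Col9a2 by 6.34 and Col11a1 by 3.45 on the log2 scale. Col10a1, the collagen of growth plate cartilage, lay 3.31 above them, Col27a1 2.97, Col16a1 2.37 and Col11a2 2.29. Some members outside cartilage were also high there, Col14a1 by 1.38, Col3a1 by 1.36, Col6a1 by 1.27 and Col24a1 by 0.78. Others were not, since Col1a1 lay 0.52 below the other controls, Col8a1 0.47 below, Col1a2 0.43 below and Col4a2 0.02 above. The mean level of 13 cartilage markers on that array was 1.28, against -5.11 and -4.17 on the other 1-week controls. The mean level of 14 skeletal muscle markers was 5.25 against -2.00 and -0.90. This array correlated with the other 1-week controls at r = 0.978 and 0.980 over all genes tested, where other pairs of a group reached 0.992 to 0.997. Results that rest on the 1-week controls are therefore given with and without it, and its removal also changes the spread that all comparisons share (median residual SD of the members 0.275).

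**Figure D1:**
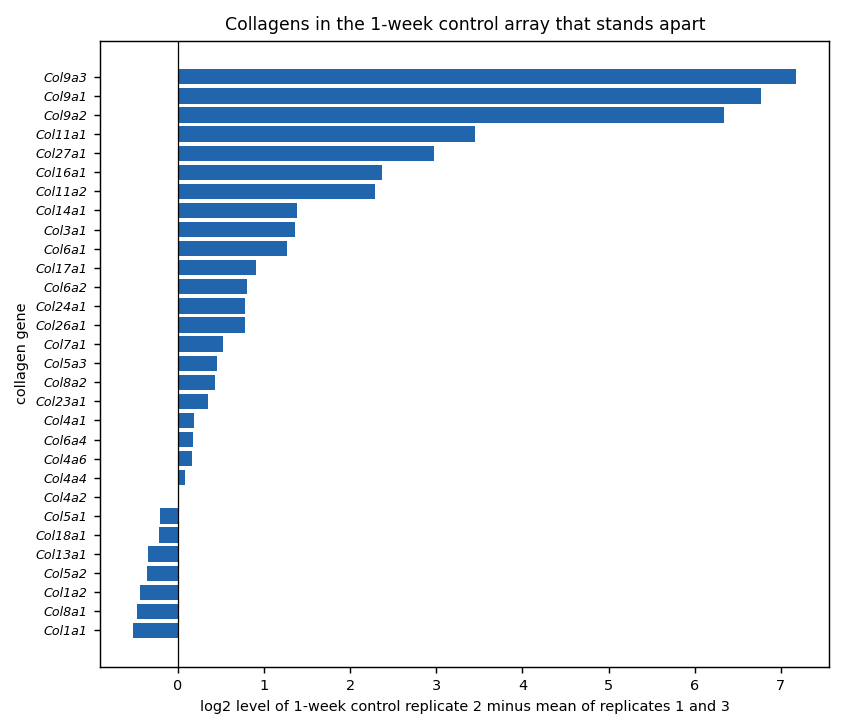
Bars show, for the 30 tested collagen genes, the log2 level of 1-week control replicate 2 minus the mean of 1-week control replicates 1 and 3. The cartilage genes Col9a3, Col9a1 and Col9a2 lie 7.18, 6.77 and 6.34 above the other arrays, while Col1a1 lies 0.52 below them.

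Start regions are shown for 3 members that carry the results below, a type I and a type III chain that were lower at 8 weeks and rose after irradiation, and the type VIII chain with the largest rise at 24 h. RefSeq promoter entries on GRCm38.p6 were found for 32 of the 39 members. The sequences are the 250 bases before each start, 5′ to 3′ on the strand of the gene, at chr6:4505368-4505617 (plus strand), chr1:45311288-45311537 (plus strand) and chr16:57754738-57754987 (minus strand).
Col1a2: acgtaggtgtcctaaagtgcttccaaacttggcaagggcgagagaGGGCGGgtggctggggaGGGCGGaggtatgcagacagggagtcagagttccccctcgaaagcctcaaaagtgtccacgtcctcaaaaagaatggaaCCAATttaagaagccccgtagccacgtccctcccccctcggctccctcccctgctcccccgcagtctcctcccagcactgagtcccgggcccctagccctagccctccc
Col3a1: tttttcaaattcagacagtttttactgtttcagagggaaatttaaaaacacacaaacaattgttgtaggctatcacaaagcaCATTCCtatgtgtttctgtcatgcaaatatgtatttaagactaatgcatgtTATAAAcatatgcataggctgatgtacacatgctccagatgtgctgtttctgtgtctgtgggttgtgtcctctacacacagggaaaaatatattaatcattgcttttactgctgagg
Col8a1: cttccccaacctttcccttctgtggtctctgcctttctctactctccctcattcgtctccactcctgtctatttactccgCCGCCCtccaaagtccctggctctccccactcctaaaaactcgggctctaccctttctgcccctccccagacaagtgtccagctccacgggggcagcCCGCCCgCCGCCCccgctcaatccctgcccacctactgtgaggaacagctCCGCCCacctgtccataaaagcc
Capitals mark the letters of 5 known promoter motifs, searched on both strands. TATAAA is the core of the box bound by TBP, CCAAT is bound by the factor NF-Y, and GGGCGG, the so-called GC box, is bound by Sp1 and its relatives. TGANTCA is the site of the dimers of Fos with Jun, and GGAATG that of the factors downstream of the Hippo pathway, the TEAD family. No match in these 3 regions overlaps another. The Col1a2 region holds 2 GC boxes and the NF-Y letters, the Col3a1 region the TBP letters and, on the other strand, the TEAD letters, and the Col8a1 region 4 GC boxes. GC box letters stood in 20 of the 32 members (62.5%) against 32.7% of 32851 promoters of this length, and the NF-Y letters in 13 (40.6%) against 33.9%. TATAAA stood in 5 of the 32 members against 12.4% of promoters, TGANTCA in 1 against 6.75% and GGAATG in 3 against 12.6%. These matches describe letters in the window and say nothing of whether a factor binds there. Col6a2, Col9a1 and Col18a1 have 2 promoter entries each and counted if any entry matched, while the shares of all promoters are over single entries. Col4a1 and Col4a2 lie head to head on chromosome 8, on opposite strands, where their RefSeq gene records run from 11198423 to 11312889 (minus strand) and from 11312805 to 11449287 (plus strand) and share 85 bases.

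In 8-week marrow most of the tested collagens rose after irradiation. At 24 h, 18 of 30 members were called higher and 3 lower, with a median difference of 1.34, while 38.3% of all genes tested were called higher and 19.5% lower with a median of 0.12. At 6 h, 12 were called higher and 2 lower, with a median of 0.81, beside 23.9% and 22.1% of all genes and a median of 0.02. All 12 members called higher at 6 h were also called higher at 24 h, a comparison that shares its controls. Among the 19 members above background on all 18 arrays, 14 were higher and 2 lower at 24 h, and 10 were higher and 2 lower at 6 h. Of the 10449 genes that pass this filter, 38.4% were higher and 20.6% lower at 24 h, and 24.2% were higher and 24.15% lower at 6 h. Leaving out 1-week control replicate 2, the counts became 19 higher and 3 lower at 24 h (38.9% and 19.7% of all genes) and 15 higher and 3 lower at 6 h (24.9% and 22.6%). In whole tissue, fewer cells of a type and less RNA per cell cannot be told apart, and this holds for every difference below.

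**Figure D2:**
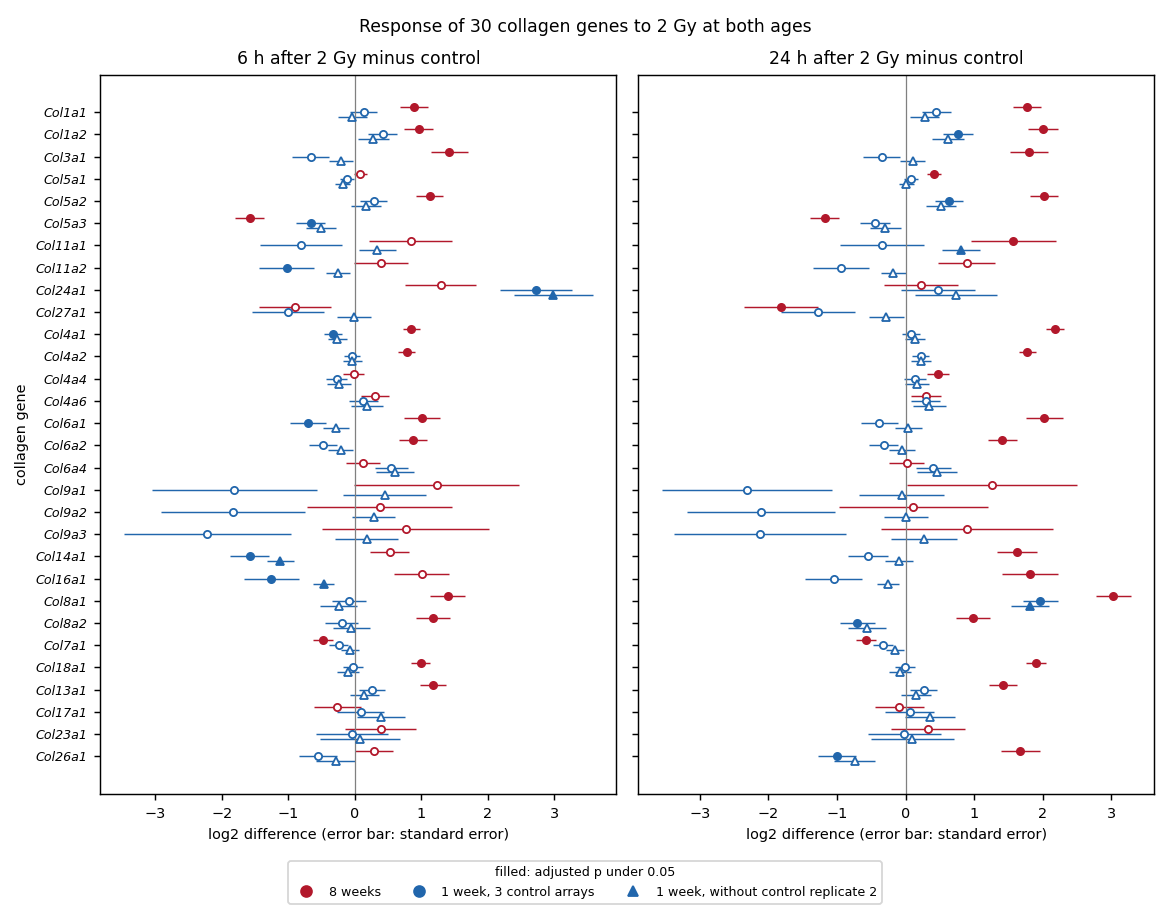
Points show the log2 difference from the control of the same age for each of the 30 tested collagen genes, at 6 h (left) and 24 h (right), with the standard error as a bar. Red circles are 8 weeks, blue circles 1 week with 3 control arrays and blue triangles 1 week without control replicate 2, and filled symbols have an adjusted p under 0.05. At 24 h 26 of the 30 red points lie above 0, while the triangles have a median of 0.10, with Col8a1 at 1.81.

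The type I chains, the main protein of bone, moved together at 8 weeks. Col1a1 stood at 2.89, 3.15 and 3.76 in the 3 controls, at 4.60, 3.80 and 4.08 at 6 h and at 5.05, 5.04 and 5.01 at 24 h. The lowest array at 6 h was above the highest control, and the arrays at 24 h were above all of those. Its difference was 0.89 ± 0.21 at 6 h (limma, adjusted p = 0.00246) and 1.77 ± 0.21 at 24 h (adjusted p = 2.44e-06). Col1a2, which supplies the other chain of the trimer, went from 3.15, 3.47 and 4.09 to 4.93, 4.21 and 4.45 at 6 h and 5.65, 5.49 and 5.57 at 24 h. That is a difference of 2.00 ± 0.22 at 24 h (adjusted p = 1.11e-06), with no overlap between controls and either time. With normexp background correction the 6 h differences were not called, at 0.91 for Col1a1 (adjusted p = 0.111) and 0.86 for Col1a2 (adjusted p = 0.112).

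Col3a1, the fibril collagen of reticular and vascular tissue, rose early. Its controls lay at -1.62, -1.73 and -1.46, its 6 h arrays at -0.43, -0.33 and 0.21 and its 24 h arrays at 0.56, -0.07 and 0.08. Most of the rise was present at 6 h (1.42 ± 0.27, adjusted p = 0.000617), and the 2 times overlapped each other. Col5a2, a chain of the collagen that starts type I fibrils, went from -4.56, -4.18 and -3.65 to -2.75, -3.36 and -2.91 and then to -1.90, -2.22 and -2.24. The control arrays were above background on 2 of 3 arrays, and all irradiated arrays were above them (2.01 ± 0.20 at 24 h, adjusted p = 4.91e-07). Its partner Col5a1 went from 1.32, 1.32 and 1.23 to 1.18, 1.28 and 1.66 at 6 h and 1.75, 1.75 and 1.63 at 24 h. The last of these was called (0.42 ± 0.10, adjusted p = 0.00201). A second Col5a1 probe, above background on 17 arrays, gave 1.30 at 24 h, so the size of this change is uncertain.

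The third chain of type V collagen went the other way on the probe used. Col5a3 stood at -0.15, -0.14 and 0.38 in 8-week controls, at -1.34, -1.57 and -1.73 at 6 h and at -0.83, -1.41 and -1.21 at 24 h. Every irradiated array was below every control. The difference was -1.58 ± 0.22 at 6 h (limma, adjusted p = 3.13e-05) and -1.18 ± 0.22 at 24 h (adjusted p = 0.000212). With all probes of Col5a3 averaged, the call was lost at both times, so the fall depends on the probe. Col7a1, the collagen that anchors epithelium to the tissue beneath, fell by 0.48 at 6 h and by 0.58 at 24 h, with controls at -1.28, -1.59 and -1.21 and 24 h arrays at -1.79, -2.06 and -1.97. With normexp background correction the 24 h value of Col7a1 is 0.13 and is not called. Col27a1, a fibrillar collagen of cartilage, stood at -3.49, -3.55 and -3.39 in controls and was above background on no irradiated 8-week array, which makes it at least 1.82-fold lower at 24 h (adjusted p = 0.00822). Here "at least" sets the brighter group against the lowest signal that counts as above background. A second Col27a1 probe gave 0.22 and normexp correction 0.40, so this direction is not settled.

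The main basement membrane chains had the smallest adjusted p-values of the family at 8 weeks and 24 h. Col4a1 stood at -2.87, -3.01 and -2.63 in 8-week controls, at -1.93, -2.20 and -1.83 at 6 h and at -0.40, -0.72 and -0.86 at 24 h. The 3 groups did not overlap. The difference was 0.85 ± 0.13 at 6 h (limma, adjusted p = 8.58e-05) and 2.18 ± 0.13 at 24 h (adjusted p = 1.16e-09). Col4a2, its head-to-head neighbour and partner chain, went from -2.53, -2.51 and -2.38 to -1.76, -2.01 and -1.32 and then to -0.54, -0.74 and -0.82 (1.77 ± 0.13 at 24 h, adjusted p = 9.18e-09). Col4a4, a chain of the kidney filter, stood at -0.74, -0.83 and -1.19 in controls, -1.11, -1.04 and -0.65 at 6 h and -0.38, -0.40 and -0.58 at 24 h. It was called at 24 h and not at 6 h (0.47 ± 0.16, adjusted p = 0.0187), Col4a6 was called in none of the 11 comparisons, and Col4a3 and Col4a5 were too dim to test. Whether the chains differ in response was not tested.

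Both main type VI chains with a probe rose. Col6a1 went from -3.32, -3.54 and -3.21 in controls to -2.18, -2.80 and -2.04 at 6 h and -1.16, -1.35 and -1.49 at 24 h (2.02 ± 0.27, limma, adjusted p = 9.82e-06). Col6a2 went from -3.63, -3.74 and -4.20 to -3.22, -2.97 and -2.75 and then to -2.37, -2.37 and -2.60 (1.41 ± 0.21, adjusted p = 2.71e-05). In both genes the controls lay below every irradiated array. Col6a4 had values between -3.85 and -3.14 over the 9 arrays at 8 weeks and was not called.

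Col8a1, a short-chain collagen of vessel walls, gave the largest rise of the family at 8 weeks and 24 h. The controls stood at 0.65, 0.79 and 1.52, the 6 h arrays at 2.11, 1.99 and 3.04 and the 24 h arrays at 4.25, 4.10 and 3.69. All 3 groups were apart, with a difference of 1.39 ± 0.26 at 6 h (limma, adjusted p = 0.000417) and 3.03 ± 0.26, or 8.16-fold, at 24 h (adjusted p = 6.55e-08). A second probe of the gene, above background on all 18 arrays, gave 2.85 at 24 h. Col8a2, the partner chain, was near background in controls (-4.84, -4.28 and -4.80, above it on 1 of 3 arrays). It rose to -3.50, -3.48 and -3.41 at 6 h and lay at -3.30, -3.88 and -3.79 at 24 h, with no further rise between the times called.

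Among the remaining classes, Col18a1, the basement membrane collagen that is the source of endostatin, went from -2.66, -2.69 and -2.52 to -1.85, -1.84 and -1.21 at 6 h and -0.62, -0.94 and -0.62 at 24 h (1.90 ± 0.15, limma, adjusted p = 2.38e-08). A second probe gave 1.91. Col13a1, a transmembrane collagen of cell-matrix contacts, stood at -3.01, -2.52 and -3.11 in controls and rose to -1.76, -1.66 and -1.69 by 6 h, with -1.18, -1.18 and -2.01 at 24 h. Col16a1, a fibril-associated collagen, went from -2.54, -2.64 and -2.55 to -1.54, -1.83 and -1.33 and then -0.51, -0.81 and -0.96. Its arrays did not overlap at either time, yet the 6 h difference of 1.01 missed the threshold (adjusted p = 0.0566) in the fit of all arrays. Without 1-week control replicate 2 its standard error falls from 0.41 to 0.14 and the 6 h adjusted p is 3.87e-05. Col14a1, which binds to fibril surfaces, went from -1.96, -1.80 and -2.18 to -1.66, -1.45 and -1.27 at 6 h and -0.25, -0.58 and -0.26 at 24 h (1.62 ± 0.29, adjusted p = 0.000177). Col26a1 stood at -6.17, -6.51 and -6.45 in controls and at -4.48, -4.53 and -5.10 at 24 h. It is counted among the 18 called higher, but it was above background on no 8-week array, so no fold is given for it.

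**Figure D3:**
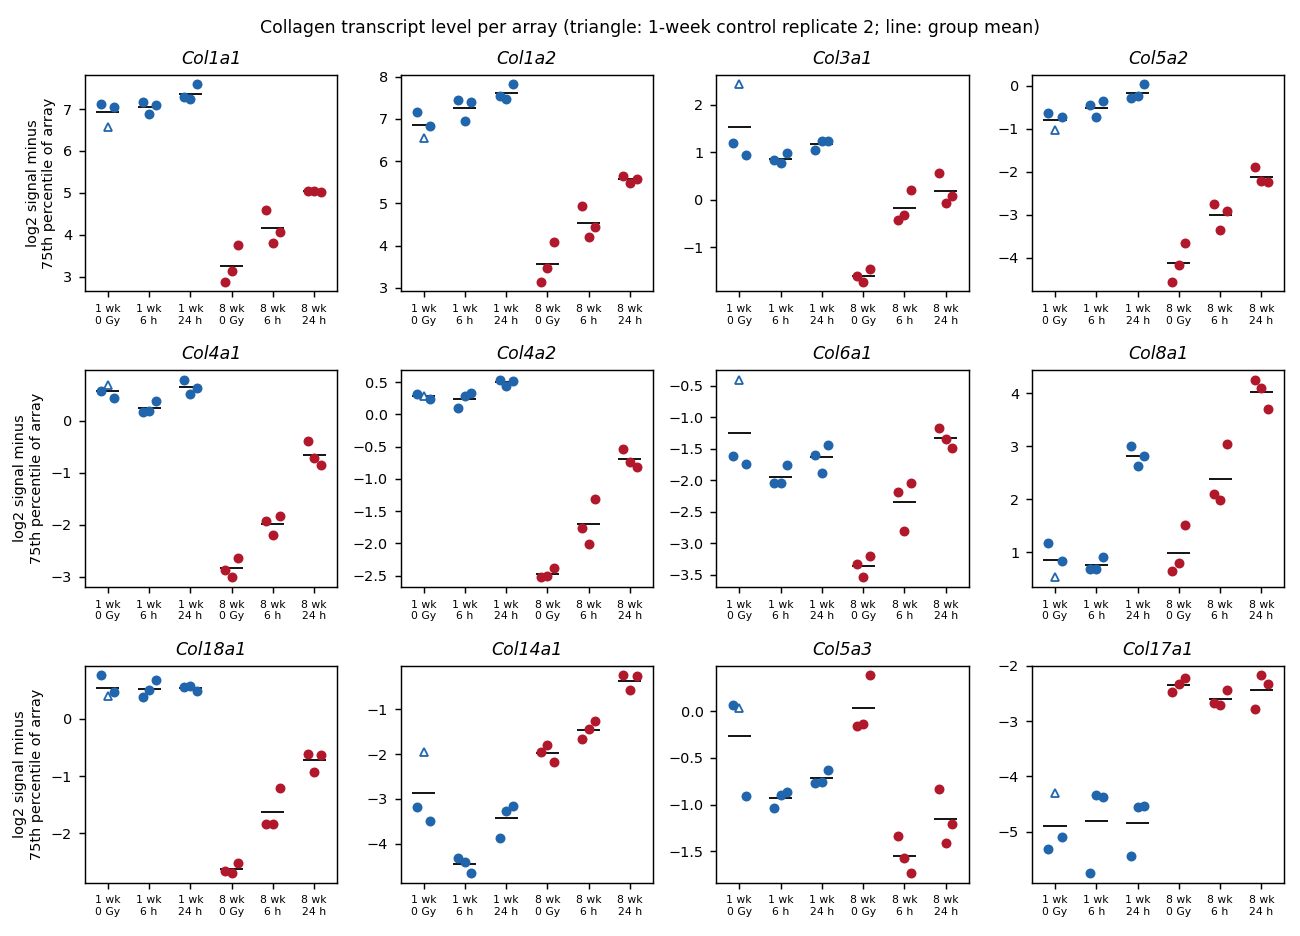
Each point is 1 array, with the log2 level relative to the array's 75th percentile on the vertical axis of each panel and the 6 groups along the horizontal axis; lines are group means and the open triangle is 1-week control replicate 2. At 8 weeks (red) Col1a1, Col4a1 and Col8a1 climb from control to 24 h, while Col5a3 drops; at 1 week (blue) Col1a1 stays between 6.57 and 7.59 and Col8a1 rises at 24 h alone.

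In 1-week marrow few collagens were called after the same dose. At 6 h, 1 member was called higher and 6 lower, beside 25.5% and 26.3% of all genes, and at 24 h 3 were called higher and 2 lower, beside 18.4% and 17.6%. The median difference was -0.26 at 6 h and -0.17 at 24 h, against 0.00 and -0.01 over all genes. Without control replicate 2, only 1 higher and 2 lower remained at 6 h and 2 higher and 0 lower at 24 h, with medians of -0.05 and 0.10. The 4 calls lost at 6 h are Col4a1, Col5a3, Col6a1 and Col11a2, and the 4 lost at 24 h are Col1a2, Col5a2, Col8a2 and Col26a1. Without that array 22.5% and 25.3% of all genes were called higher and lower at 6 h, and 16.7% and 17.5% at 24 h.

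Col8a1 rose at 1 week too, but late. Controls stood at 1.18, 0.53 and 0.83, the 6 h arrays at 0.69, 0.69 and 0.91 and the 24 h arrays at 3.01, 2.62 and 2.81. The 6 h arrays lay within the range of the controls, and all 24 h arrays were above it (1.97 ± 0.26, limma, adjusted p = 1.91e-05). Without control replicate 2 the difference is 1.81 ± 0.28 (adjusted p = 0.000119), and a second probe gave 2.03. On the 2 slides that hold both groups it was 2.48 and 1.79.

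Col14a1 fell at 1 week and 6 h. Its controls stood at -3.18, -1.96 and -3.49, with replicate 2 the highest, and the 6 h arrays at -4.32, -4.41 and -4.64 were all at background. It was at least 2.54-fold lower (limma, adjusted p = 0.000253), or at least 1.85-fold lower without control replicate 2 (adjusted p = 0.000327). At 24 h the arrays were at -3.88, -3.26 and -3.15, and the difference of -0.55 was not called. A second Col14a1 probe was above background on 1 of 18 arrays and gives no check. The 6 h call was lost with normexp background correction and with all probes averaged.

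Col16a1 was also lower at 6 h, by -1.26 ± 0.41 with all arrays (adjusted p = 0.018). Without control replicate 2 that shrinks to -0.47 ± 0.16 (adjusted p = 0.0223), with controls left at 0.26 and -0.16 and 6 h arrays at -0.37, -0.62 and -0.26. Col24a1, a minor fibrillar collagen of bone, gave the family's largest 1-week value at 6 h. Its arrays stood at -4.81, -4.19 and -5.14 in controls, at -1.79, -2.26 and -1.92 at 6 h and at -4.58, -4.00 and -4.14 at 24 h. The difference was 2.72 ± 0.54 (limma, adjusted p = 0.000491), but the controls were above background on 1 of 3 arrays, and a second probe gave 0.05. The 2 probes therefore disagree on whether Col24a1 changed. Col11a1 at 24 h turned sign with control replicate 2: -0.34 with it, not called, and 0.81 ± 0.27 without it (adjusted p = 0.0325), with the 24 h arrays at 1.75, 1.67 and 2.23 above both other controls at 0.98 and 1.18.

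The remaining fibrillar and basement membrane chains are given array by array at 1 week. Col1a1 stood at 7.17, 6.89 and 7.10 at 6 h and 7.28, 7.23 and 7.59 at 24 h, above its controls at 24 h but not called. Col1a2 stood at 7.15, 6.56 and 6.83 in controls, 7.45, 6.95 and 7.40 at 6 h and 7.55, 7.46 and 7.82 at 24 h, and Col5a2 at -0.63, -1.04 and -0.73, then -0.45, -0.73 and -0.36, then -0.29, -0.24 and 0.03. In both genes replicate 2 is the lowest control, and every 24 h array lay above all controls. Without replicate 2 the 24 h differences were 0.62 (limma, adjusted p = 0.0507) and 0.51 (adjusted p = 0.0854). Col5a3 stood at 0.06, 0.04 and -0.91 in controls, with replicate 3 alone low, at -1.04, -0.90 and -0.86 at 6 h and at -0.77, -0.76 and -0.63 at 24 h. Col3a1 stood at 1.20, 2.43 and 0.95 in controls, 0.84, 0.78 and 0.98 at 6 h and 1.04, 1.24 and 1.24 at 24 h, and neither time was called. Col5a1 stayed between 2.45 and 2.84 over all 9 arrays.

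Col4a1 at 1 week stood at 0.58, 0.69 and 0.44 in controls, 0.17, 0.19 and 0.37 at 6 h and 0.79, 0.52 and 0.63 at 24 h. All 6 h arrays lay below the controls, a difference of -0.33 that was called with all arrays (limma, adjusted p = 0.0454) and not without replicate 2 (adjusted p = 0.141). Col4a2 lay between 0.10 and 0.54 over the 9 arrays and Col18a1 between 0.38 and 0.76, and neither was called. Col6a1 stood at -1.61, -0.41 and -1.74, then -2.05, -2.04 and -1.76, then -1.60, -1.88 and -1.44, and its call at 6 h rests on replicate 2, the highest control. Col8a2 stood at -3.02, -2.78 and -3.40, then -3.21, -2.84 and -3.73, then -4.03, -3.83 and -3.46, so the 24 h arrays were below the controls by a difference of -0.70 (adjusted p = 0.0378), or -0.56 without replicate 2 (adjusted p = 0.131). Col26a1 stood at -2.59, -1.96 and -2.90, then -3.36, -3.01 and -2.73, then -3.72, -3.37 and -3.37, and was lower at 24 h with all arrays and not called without replicate 2. Col6a2 lay between -2.94 and -1.71 and Col13a1 between -1.34 and -0.63 over the 9 arrays, with no call at either time.

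The difference between ages was tested directly, as the 8-week response minus the 1-week response. At 24 h it was called higher for 16 of 30 members and lower for 0, beside 28.5% and 13.5% of all genes. At 6 h it was called higher for 11 and lower for 1 (Col5a3), beside 10.5% and 8.09%. The call of Col5a3 held in 9 of 30 alternatives. These counts were 17 and 2 at 24 h without 1-week control replicate 2, beside 28.2% and 11.6%, and 13 and 1 at 6 h, beside 10.1% and 5.51%. With all arrays, of the 19 members above background on every array 12 were higher and 0 lower at 24 h, and 9 and 1 at 6 h. Of the genes that pass this filter 28.8% were higher and 14.8% lower at 24 h, and 10.9% and 8.84% at 6 h. All 16 members called at 24 h and all 12 called at 6 h with every array were called in the same direction without 1-week control replicate 2. Among members whose 1-week controls that array hardly moves, Col4a1 differed by 2.10 ± 0.18 at 24 h (limma, adjusted p = 1.06e-06), or 2.04 ± 0.19 without the array. Col18a1 differed by 1.90 ± 0.21 and 1.98 ± 0.22, and Col4a2 by 1.56 ± 0.18 and 1.55 ± 0.19. Col3a1 and Col6a1, which are high on that array, came down from 2.15 to 1.69 and from 2.41 to 1.99. For Col8a1, which rose at both ages, the 8-week rise was larger by 1.06 ± 0.36 (adjusted p = 0.0272), or 1.22 ± 0.37 without the array. With the slide as a block the Col8a1 difference was not called (adjusted p = 0.105).

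In unirradiated marrow, most of the tested collagens were lower at 8 weeks than at 1 week. In controls 21 members were lower at 8 weeks and 2 higher, with a median difference of -1.94, beside 37.5% and 27.4% of all genes and a median of -0.09. When 1-week control replicate 2 was left out, 19 were lower and 2 higher, beside 36.8% and 25%, and the median was -1.54. Without it the calls of Col4a4 and Col27a1 are lost. Among the 19 members above background on every array, 14 were lower and 0 higher, beside 37.2% and 28.65% of the genes that pass this filter.

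The type I chains and several basement membrane chains were among the members lower at 8 weeks. Col1a1 stood at 7.12, 6.57 and 7.06 in 1-week controls against 2.89, 3.15 and 3.76 at 8 weeks, a difference of -3.65 ± 0.21 (limma, adjusted p = 4.09e-10). Its 2 further probes gave -5.25 and -5.24, so the size of this gap depends on the probe while its direction does not. Col4a1 stood at 0.58, 0.69 and 0.44 against -2.87, -3.01 and -2.63 (-3.41 ± 0.13, adjusted p = 4.62e-12), and Col18a1 at 0.76, 0.39 and 0.48 against -2.66, -2.69 and -2.52 (-3.17 ± 0.15). No array of either age overlapped the other in these genes. Col1a2 differed by -3.28, Col5a2 by -3.33, Col4a2 by -2.75, Col13a1 by -1.77 and Col5a1 by -1.41. Without 1-week control replicate 2 these 5 values were -3.42, -3.45, -2.75, -1.88 and -1.47. Col3a1 differed by -3.13 with that array and by -2.68 without it.

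In controls 2 members were higher at 8 weeks. Col17a1, a transmembrane collagen of hemidesmosomes, was above background on no 1-week array and on all 9 arrays at 8 weeks. Its 8-week controls stood at -2.48, -2.32 and -2.21, at least 4.12-fold above the 1-week controls (limma, adjusted p = 8.83e-06), and its levels at 6 h and 24 h at 8 weeks ran from -2.79 to -2.17. Neither time was called against the controls at either age. Col14a1 was higher at 8 weeks by 0.89 ± 0.29 in controls (adjusted p = 0.0125), by 1.35 ± 0.21 without 1-week control replicate 2, and by 3.06 ± 0.29 at 24 h (adjusted p = 1.3e-07). With all probes of Col14a1 averaged the control difference is -0.06, and with the slide as a block it is not called (adjusted p = 0.0559).

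After irradiation the age gap was narrower for some members and wider for others. At 6 h 16 members were lower at 8 weeks and 3 higher, beside 36% and 28.2% of all genes, and at 24 h 13 were lower and 3 higher, beside 27.7% and 33.5%. In the fit without 1-week control replicate 2, the counts were 19 and 3 at 6 h, beside 36.7% and 28.7%, and 15 and 3 at 24 h, beside 28.5% and 34%. With all arrays, of the 19 members above background on every array 12 were lower and 1 higher at 6 h, and 10 and 1 at 24 h. Of the genes that pass this filter 36.3% were lower and 29.9% higher at 6 h, and 28.5% and 35.1% at 24 h. All 13 members lower at 24 h were among the 21 lower in controls. The gap of Col1a1 went from -3.65 to -2.89 and -2.33, and that of Col4a1 from -3.41 to -2.23 and -1.31. The gaps of Col6a1 (-2.10), Col6a2 (-1.61) and Col8a2 (-1.57) were called in controls and not at either time after irradiation, where they lay between -0.39 and 0.30. These control gaps are with all arrays. In these genes 1-week control replicate 2 lay 1.27, 0.80 and 0.43 above the other 1-week controls, so the gaps are smaller without it, though still called. The third gene to stand higher at 8 weeks after irradiation was Col8a1, by 1.61 ± 0.26 at 6 h (limma, adjusted p = 3.77e-05) and 1.20 ± 0.26 at 24 h, from 0.14 in controls. The gap of Col27a1 went from -1.49 in controls to -2.04 at 24 h, where the 8-week arrays were not above background, and that of Col24a1 from -0.26 to -1.69 at 6 h. Without 1-week control replicate 2 the Col27a1 control gap was -0.50 and not called. With normexp background correction its 24 h gap was 0.23, not called. The Col24a1 call at 6 h was lost with normexp and with the slide as a block, and its probes disagree on the 1-week change at 6 h.

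**Figure D4:**
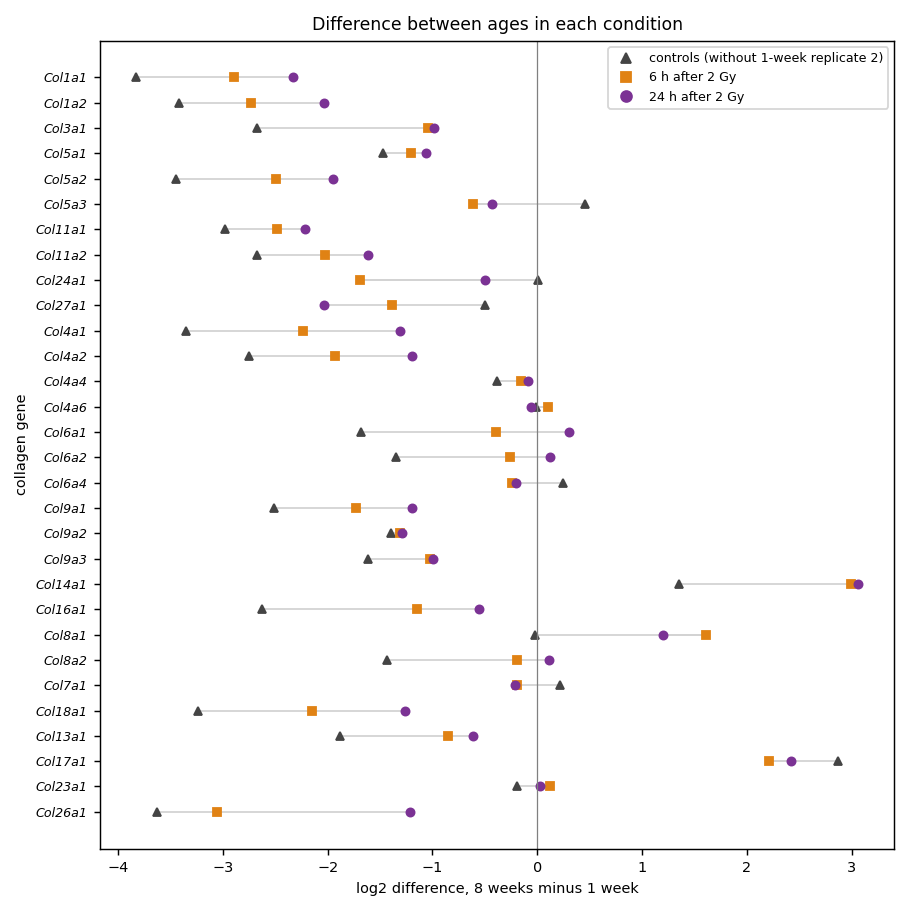
For each of the 30 tested genes, symbols on 1 line give the 8-week minus 1-week log2 difference in controls (triangles, without 1-week control replicate 2), at 6 h (squares) and at 24 h (circles). For Col1a1, Col4a1 and Col18a1 the symbols approach 0 from the left with time after irradiation, while Col14a1 and Col17a1 lie to the right of 0 throughout.

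Between 6 h and 24 h at 8 weeks 13 members rose further and 0 fell, beside 33% and 16.5% of all genes, led by Col8a1 (1.63 ± 0.26) and Col4a1 (1.33 ± 0.13). The counts were 16 and 1 without 1-week control replicate 2, beside 33.5% and 16.9%. At 1 week 3 members rose (Col8a1, Col14a1 and Col4a1) and 1 fell (Col24a1), beside 18.6% and 17.6%. The same 4 were called without the array, beside 19.2% and 18.3%.

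The cartilage collagens need to be read without 1-week control replicate 2. With it, Col9a1, Col9a2, Col9a3 and Col11a1 had standard errors of 0.62 to 1.25 in the irradiation comparisons, and of these only Col11a1 at 8 weeks and 24 h was called. Without it, Col11a1 rose at 8 weeks by 0.84 ± 0.25 at 6 h (limma, adjusted p = 0.0107) and 1.57 ± 0.25 at 24 h (adjusted p = 4.92e-05), from -2.37, -2.14 and -1.20 in controls to -0.31, -0.38 and -0.31. Col11a2 rose by 0.89 at 24 h (adjusted p = 0.000208), from -1.41, -1.44 and -0.93 to -0.36, -0.42 and -0.34, although its second probe gave -0.27. Col9a1, Col9a2 and Col9a3 were not called at either age after irradiation. In controls all 3 stayed lower at 8 weeks without the array, Col9a2 by -1.40 ± 0.32 and Col9a1 at least 2.02-fold. Array by array, Col9a1 stood at -3.98, 3.19 and -3.19 in 1-week controls and at -5.62, -6.78 and -5.90, below background, in 8-week controls. Col9a2 stood at -2.97, 3.70 and -2.32 against -4.25, -3.86 and -4.02, and Col9a3 at -4.26, 3.49 and -3.12 against -5.27, -5.31 and -5.33. In all 3 genes replicate 2 is the only 1-week array above 0. Of Col2a1, the main cartilage collagen, a second probe without outlier spots stood at -0.47, 8.29 and 0.80 in the 1-week controls, with replicate 2 by far the highest. At 8 weeks that probe went from -2.56, -2.28 and -2.49 to -0.30, -0.93 and -0.96 at 24 h, a difference of 1.71 ± 0.54 without the array (adjusted p = 0.0119). Of the 4 cartilage markers tested, 2 (Sox9 and Matn1) were called higher at 8 weeks and 24 h without the array, beside 38.9% of all genes. Acan (0.53) and Comp (-0.0027) were not called, and so few genes cannot be told from that share. The list's mean level there ran from -5.42 to -5.10 against -6.18 to -5.63 in controls. The part of the cartilage markers in these collagen values was not tested.

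The dim members add little. Col28a1 was above background on no array, Col4a3, Col6a6, Col19a1 and Col25a1 on 1 array each, Col4a5 on 2, Col15a1 on 4 and Col10a1 on 7 of 18. Col10a1 was above background at 8 weeks on a single array, control replicate 2, where it stood at -1.61 against -6.66 and -6.84 on the other controls. Of the 30 tested members, 27 were called in at least 1 comparison, and Col4a6, Col6a4 and Col23a1 in none. The matching share of all genes is not given here. Between ages in controls alone, 27.4% of all genes were called higher and 37.5% lower. Those shares are of 1 comparison, so whether the count of 27 sets the family apart from other genes was not tested. Over the 18 arrays Col4a6 ranged from -1.59 to -0.39 and Col23a1 from -5.13 to -1.90. A second Col6a4 probe was brighter at 8 weeks than at 1 week by 2.13 in controls, where the probe used gave 0.19.

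Where a called member has a further probe above background in a group, the 2 signs mostly matched. They did so for 8 of 9 further probes at 8 weeks and 24 h and for 9 of 9 in the age difference of controls. The exceptions over all comparisons were Col4a1 (1 week at 6 h), Col27a1 (8 weeks at 24 h, and the age difference at 24 h), Col11a2 (age difference of the 24 h response) and Col24a1 (1 week, 24 h against 6 h).

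The arrays lay on 5 slides, which each held several groups. For every called member, the difference between arrays of the 2 groups on 1 slide had the direction of the full comparison on each slide that holds both, over the comparisons between a pair of groups. The arrays compared are the same ones that gave the calls, so this agreement was largely fixed in advance and is no separate check. For Col1a1 the 8-week 24 h difference within a slide was 1.26, for Col4a1 1.77, for Col8a1 2.18 and for Col5a3 -1.59. With the slide as a block, 14 members were called at 8 weeks and 6 h, 21 at 24 h (Col11a1 lost) and 22 in the age difference of controls (Col14a1 lost). At 1 week and 6 h the block lowers the calls from 7 to 3, with Col4a1, Col6a1, Col11a2 and Col16a1 lost.

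Genes that fold, process, bind or break down collagen were read from lists. Of 16 tested genes of collagen folding and modification, 13 were higher and 0 lower at 8 weeks and 24 h, where 38.3% of all genes were higher and 19.5% lower. They include Serpinh1, the collagen chaperone Hsp47 (2.50 ± 0.15, limma, adjusted p = 1.75e-09), the prolyl isomerases Fkbp10 (2.73 ± 0.19) and Fkbp14 (2.38 ± 0.34), and Crtap of the prolyl hydroxylation complex (0.88 ± 0.13). In 8-week controls Serpinh1 was 3.21 lower and Fkbp10 3.93 lower than at 1 week on the log2 scale, with all arrays. In that comparison 10 of the 16 genes were lower and 3 higher, beside 37.5% and 27.4% of all genes. Without 1-week control replicate 2 these were 9 and 3, beside 36.8% and 25%. Of 8 genes of procollagen processing and crosslinking 6 were higher and 0 lower, among them Pcolce (2.15 ± 0.12), the propeptidase Adamts2 (2.09 ± 0.14) and the lysyl oxidases Loxl1 (1.66 ± 0.17) and Loxl2 (2.37 ± 0.38).

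Of 13 collagen-binding matrix proteins 10 were higher and 1 lower at 8 weeks and 24 h, again beside 38.3% and 19.5% of all genes. Thbs2 (1.80 ± 0.20), Nid1 of basement membranes (1.40 ± 0.17), Postn (1.78 ± 0.22) and Fbn1 (1.39 ± 0.18) were higher, and Fn1, fibronectin, was the one that fell (-1.21 ± 0.17). All 11 genes of collagen breakdown were higher. They include both proteases and their inhibitors. The 4 with the smallest adjusted p were Mmp2 (2.85 ± 0.20), Mmp14 (1.09 ± 0.11), Mmp9 (0.89 ± 0.10) and the uptake receptor Mrc2 (1.37 ± 0.15). Mmp9 was also called higher at 1 week and 24 h, by 0.63 without control replicate 2, and its age difference of the response was not called. Of 6 tested collagen receptors 3 were higher, led by Itga11 (1.88 ± 0.19) and Ddr2 (1.04 ± 0.21), and 1, Adgrg1, was lower (-0.40 ± 0.09). The receptor counts lie near the shares of all genes. At 1 week and 24 h, without control replicate 2, the 5 lists gave 4 and 1, 1 and 0, 6 and 0, 4 and 1, and 1 and 1 members higher and lower in this order. These counts, of 16, 8, 13, 11 and 6 genes tested, stand beside 16.7% and 17.5% of all genes called higher and lower in that fit, and several lie near those shares.

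Markers of the cells that make collagen moved with the family. At 8 weeks and 24 h, beside 38.3% of all genes higher and 19.5% lower, 10 of 13 tested fibroblast and reticular stroma markers were higher, 9 of 13 osteoblast and osteocyte markers, 9 of 11 endothelial markers and 4 of 7 smooth muscle and pericyte markers, with 0, 0, 0 and 1 lower. The mean level of the stroma list ran from -1.93 to -1.66 over the 8-week controls, from -1.27 to -0.86 at 6 h and from -0.91 to -0.46 at 24 h. That of the osteoblast list ran from -3.20 to -3.15, -2.59 to -2.23 and -2.14 to -1.59, and that of the endothelial list from -1.25 to -1.12, -0.83 to -0.49 and -0.33 to -0.09. In 1-week controls the 3 lists lay higher, at -0.65 to -0.57, -1.15 to -0.95 and -0.17 to 0.21, and at 24 h without control replicate 2 they had 4, 2 and 2 members called higher and 3, 0 and 1 lower, beside 16.7% and 17.5% of all genes. Of other lists at 8 weeks and 24 h, 6 of 7 adipocyte markers were higher, 3 of 6 osteoclast markers were higher and 1 lower, and 4 of the 11 blood-forming markers were higher and 4 lower. The 2 tested tendon and synovial markers were not called with all arrays, and 1 was called higher without 1-week control replicate 2. Skeletal muscle markers varied within groups, with mean levels of -4.71 to -0.93 over the 8-week controls, and the smallest adjusted p among the 11 tested at 24 h was 0.314, for Actn3 (limma). Without 1-week control replicate 2, Actn3 was called higher (1.35, adjusted p = 0.0269) and Mylpf lower (-0.58, adjusted p = 0.00191). The part of these cell markers in the collagen results was not tested.

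**Figure D5:**
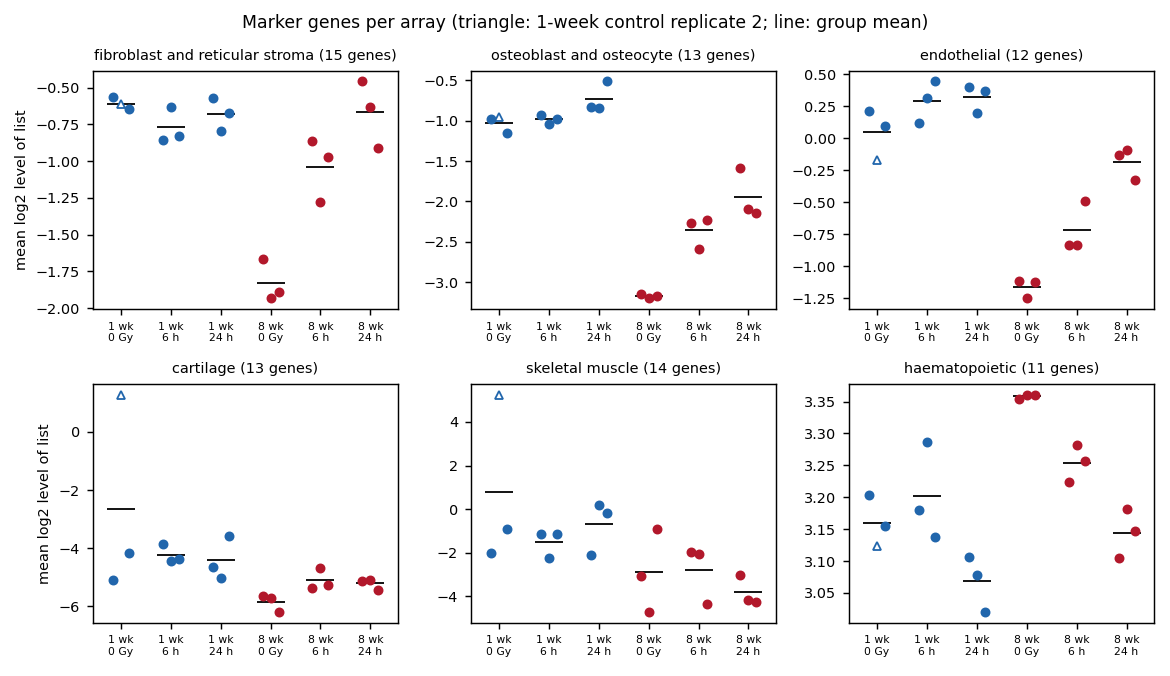
Each point is the mean log2 level of a marker list on 1 array, by group, with group means as lines and 1-week control replicate 2 as an open triangle. The stroma, osteoblast and endothelial lists climb from control to 24 h at 8 weeks, and the cartilage and muscle lists are high on the triangle array (1.28 and 5.25). The mean of the blood-forming list stays between 3.02 and 3.36, while its single markers moved in both directions.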

How the data were processed

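Bone marrow RNA from 18 samples (6 groups, 3 arrays each, 3 mice per group per the series' design text) was measured on one-colour Agilent arrays. The deposited scanner files hold, per the file headers, the processed signal as an intensity (background subtracted by Agilent Feature Extraction; the submitters' processing notes give version 11.5.1 and the headers 9.5.1.1) and 0 or 1 codes for spots well above background, saturated or outlying. The deposited series matrix holds log2 values of the same arrays, centred on the median of each probe over the arrays: set against the scaled scanner values centred that way, its columns had r of at least 0.9999 and slopes of 0.9998 to 1, and its column medians ran from -0.167 to 0.244. It served as an alternative.

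Control and outlier spots were set aside, log2 signals were scaled to the 75th percentile of each array, spots of a probe were averaged, and probes were named from their RefSeq identifiers (24844 of 41174 matched). The brightest probe stood for a gene. A gene was tested if, in 1 or more groups, every array had it well above background (11884 genes). limma 3.58.1 (R 4.3.3; lmFit, eBayes with an intensity trend) was fitted to all arrays with 11 contrasts and Benjamini-Hochberg adjustment over those genes. The number of arrays limits the precision.

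Named genes were all collagen members, and up to 4 genes with the smallest p of each pathway list. Fn1 and Actn3 were named after their values were seen. Members and lists were chosen with earlier results of these data known. A "well above" bound is the mean, over arrays, of the higher of the lowest such signal and the probe's own. Alternatives were other scalings, normexp on the median signals (offset 50; mean signals were not used here), the series matrix, probe rules, filters, blocks, no trend, compared groups alone, and each array left out. A Col2a1 probe without outlier spots was added after seeing the data. The fit was tested on simulated data.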

Additional observations from a re-analysis of the deposited data

Results flagged for a closer look

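The response to irradiation differed between ages, by limma's test of the difference (8-week response minus 1-week response, log2 scale, adjusted over all genes), for 12 members at 6 h and 16 at 24 h. These are the results that a test of a difference between groups singled out. The type I chains differed at 24 h, Col1a1 by 1.32 and Col1a2 by 1.24, but with normexp background correction these were 0.95 and 0.60 and not called (adjusted p = 0.226 and 0.421). Col3a1 differed by 2.08 at 6 h and 2.15 at 24 h, and Col5a2 by 1.38 at 24 h. Col5a3 was the one member with a lower value, -0.91 at 6 h, a call that held in 9 of 30 alternatives and was lost, among others, with the replicate block, the series matrix and the mean of all probes. Among basement membrane chains, Col4a1 differed by 1.18 and 2.10, Col4a2 by 0.82 and 1.56 and Col18a1 by 1.01 and 1.90. Col6a1 differed by 1.71 and 2.41, and Col6a2 by 1.36 and 1.73. Col8a1 differed by 1.48 and 1.06, Col8a2 by 1.38 and 1.69, and Col13a1 by 0.92 and 1.16. The 6 h call of Col13a1 held in 18 of 30 alternatives and the 24 h call of Col8a1 in 22 of 30. Col14a1 differed by 2.10 and 2.17 and Col16a1 by 2.26 and 2.86, with the first of each pair at 6 h. The Col14a1 value at 6 h rests on 1-week arrays that were not above background, so it is a fitted value and its size is not measured. That call was also lost with normexp and with the mean of all probes. Col11a2 differed by 1.83 at 24 h. The fitted value of Col26a1 at 24 h was 2.68, but the gene was above background on no 8-week array, so this gives no size for the difference.

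Without 1-week control replicate 2, Col16a1 came to 1.47 and 2.07, Col14a1 to 1.64 and 1.71, and Col11a2 to 1.07. With the slide as a block, Col5a3, Col6a1, Col16a1, Col8a1 and Col13a1 were not called at 6 h, nor Col11a2 and Col8a1 at 24 h.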

How the results depend on the processing

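Of 150 called differences of members, 79 were called in the same direction under every alternative run. At 1 week and 6 h the 7 calls became 4 with the percentile of detected probes, the series matrix or no intensity trend, 3 with the mean of all probes, the slide as a block or only the groups compared, and 2 with normexp background correction. At 1 week and 24 h the 5 calls became 1 with normexp and 2 when genes had to be above background on all 18 arrays. Normexp gave 7 for 14 at 8 weeks and 6 h, 3 for 12 and 10 for 16 in the age differences at 6 h and 24 h, and 1 for 4 between 6 h and 24 h at 1 week, where the mean of probes gave 2. The control age difference fell from 23 to 14 under the stricter filter, which tests fewer genes.

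Normexp also lowered the calls over all genes. They went from 6161 to 1286 and from 4279 to 671 at 1 week (6 h, 24 h), from 5469 to 759 and from 6870 to 3514 at 8 weeks, and from 7711 to 2804, 7637 to 2939 and 7282 to 3412 between ages in controls, at 6 h and at 24 h. The age differences of the response went from 2210 to 133 (1370 with the slide block) and from 5001 to 981, and 24 h against 6 h from 4299 to 417 and from 5872 to 1857 at 1 and 8 weeks. The share of calls that were higher went from 56.5% to 83.5% in the age difference at 6 h, from 54.8% to 43.3% between ages at 24 h and from 66.7% to 50.2% between 24 h and 6 h at 8 weeks. The cause was not tested.

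With normexp the sign turned and the call was lost for Col27a1 (0.40) and Col7a1 (0.13) at 8 weeks and 24 h. The same held for Col26a1 (0.52) and Col27a1 (0.23) between ages at 24 h. With the mean of probes it held for Col14a1 between ages in controls (-0.0565) and between the times at 1 week (-0.0605). None of these values was called (limma, smallest adjusted p 0.473), so no opposite change was shown. Col6a4, not called in the main fit, was called with a turned sign by the mean of probes. Its values between ages were 0.90 at 6 h and 0.63 at 24 h. Leaving out 1 array at a time, the collagen calls ran from 3 (without 1-week control replicate 2) to 11 (without replicate 1) at 1 week and 6 h, and from 2 (without replicate 2) to 11 (without replicate 3) at 1 week and 24 h. Col11a1 at 1 week and 24 h ran from -0.97 to 0.81, and Col23a1 between the times at 1 week from -0.94 (without 24 h replicate 3) to 0.68. At 8 weeks the calls ran from 14 to 18 at 6 h and from 19 to 22 at 24 h. The samples share only a replicate number: over 45 pairs of same-numbered arrays the deviations from group means correlated at -0.267 to 0.319, and 9 of 18 arrays correlated best with their own number. With the replicate block, 5 members were called at 1 week and 6 h and 21 at 8 weeks and 24 h.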
